A study of Homo sapiens with 4 samples.

Results

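The genes described here encode 7 accessory subunits of BAF, the mammalian SWI/SNF family of chromatin remodelling complexes: the 3 BCL7 proteins, SS18 with its paralog SS18L1, and the actin-related proteins ACTL6A and ACTL6B. They were taken from the count table by gene symbol, and all 7 symbols were found among 63241 genes. RNA was sequenced from FT190, an established human cell line whose label gives ovarian epithelium and which is known to derive from immortalised secretory cells of the fallopian tube. In the shSMARCA4 group (n = 2 libraries) the cells expressed a short hairpin RNA against SMARCA4, a single hairpin by its treatment label, SMARCA4_sh1. In the control group (n = 2 libraries) they carried the PLKO control vector, with the treatment label Ctrl. Both groups have the genotype label WT and were grown in the same RPMI medium with serum. Whether the 2 libraries of a group stem from independent cultures is not given in the labels, so the spread behind each p-value may be technical alone.

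BAF complexes slide and evict nucleosomes with the energy of ATP, which the ATPase subunit, SMARCA4 or its paralog SMARCA2, hydrolyses. ACTL6A and beta-actin (ACTB) bind the ATPase as a pair, and the BCL7 proteins belong to the same ATPase module. SS18 is a subunit of the canonical and the non-canonical BAF complexes and is best known from synovial sarcoma, where it is fused to an SSX protein. In neurons leaving the cell cycle, ACTL6A and SS18 are replaced by ACTL6B and SS18L1 (also called CREST), so the members come in paralog sets of which a cell type may use 1 or several.

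Total counts were 28536665 and 27137414 in the shSMARCA4 libraries and 33641343 and 32618516 in the control libraries. Levels are given as CPM, counts scaled to a library total of 1e+06. SMARCA4 itself stood at 34.0 and 36.3 CPM in the shSMARCA4 libraries, against 171 and 162 CPM in the controls, a log2 fold change of -2.24 with a standard error (SE) of 0.052, in the direction of the label (edgeR's quasi-likelihood test, Benjamini-Hochberg adjusted p = 1.86e-07). Of the epithelial markers, PAX8 was present at 63.2 and 63.5 CPM in the shSMARCA4 libraries and 57.4 and 59.8 CPM in the controls. EPCAM, OVGP1 and MUC16 stayed below 1 CPM in every library. The 9 epithelial markers summed to 1267 and 1271 CPM in the shSMARCA4 libraries, against 1862 and 1759 CPM in the controls, and the 4 ciliated cell markers found summed to 0.688 to 1.07 CPM over the 4 libraries. Of the 8 epithelial markers tested 1, WT1, rose and 4, KRT7, KRT8, KRT18 and MSLN, fell, by the rule given below. Over all genes tested 13.8% rose and 15.8% fell. The part of these markers in the results below was not tested.

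Transcripts of 3 of the 7 subunits, BCL7A, ACTL6A and BCL7C, rose in shSMARCA4 cells, none fell, SS18, SS18L1 and BCL7B did not pass the test, and ACTL6B had no count in any library. A gene is said to rise or fall where the adjusted p of the edgeR test over all 18781 genes tested was below 0.05. By that rule 29.7% of all tested genes were called, 13.8% as higher and 15.8% as lower. Higher calls made up 46.6% of all calls, or 59.5% when libraries were scaled by their totals alone. The 6 members tested had a median log2 fold change of 0.13, with a range of -0.14 to 0.78, beside a median of -0.0045 over all genes tested. In 5 of the 6 the groups did not overlap, as was so for 65.9% of all genes tested. BCL7C passed narrowly and its call depended on the settings described below. RNA from a whole culture was measured, so fewer cells of a type and less RNA per cell cannot be told apart.

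**Figure D1:**
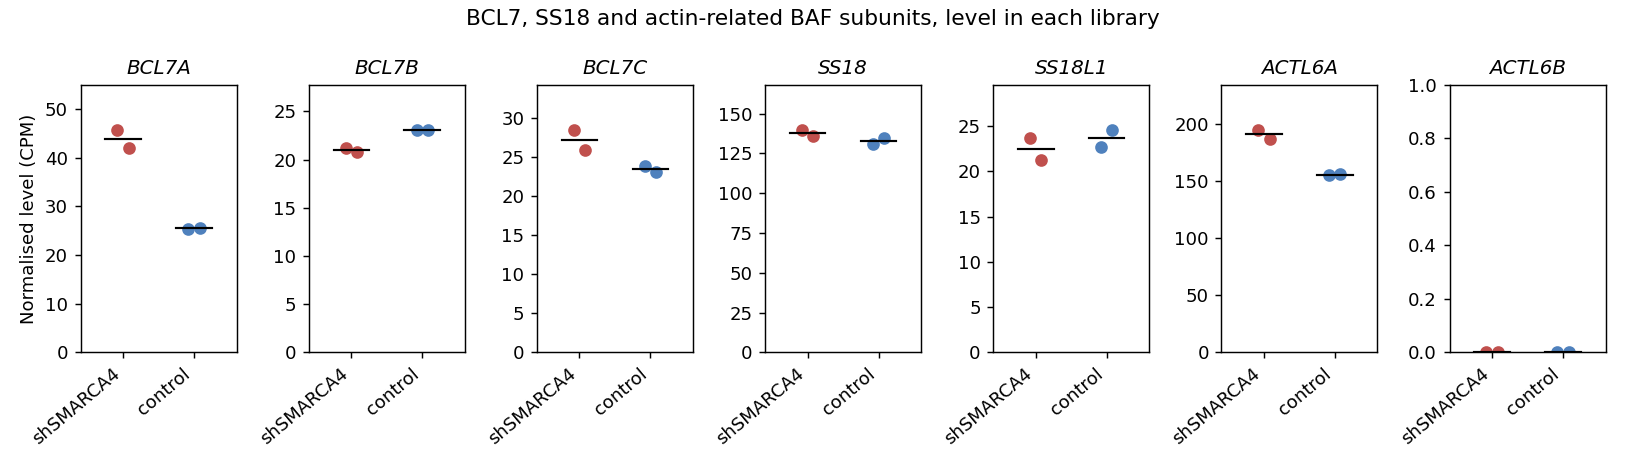
Level of each of the 7 transcripts in CPM (vertical axes, each starting at 0 with its own scale) in the 2 shSMARCA4 and the 2 control libraries; points are libraries and bars are group means. BCL7A shows the widest gap relative to its level, with 45.8 and 41.9 CPM in shSMARCA4 libraries above 25.4 and 25.6 CPM in controls, SS18L1 is the tested member whose groups overlap, and ACTL6B lies at 0 throughout.

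BCL7A, named for a chromosomal rearrangement in B-cell lymphoma and mutated in some lymphomas, changed most among the members. The transcript counted for it (ENST00000538010.5 of gene ENSG00000110987.9) lies on the plus strand of hg38 at chr12:122019422-122062044, and its exons span 6236 bases. Its counts were 1326 and 1157 in the shSMARCA4 libraries, against 833 and 825 in the controls. Scaled for depth, that was 45.8 and 41.9 CPM in the shSMARCA4 libraries and 25.4 and 25.6 CPM in the controls, so both shSMARCA4 libraries lay well above both controls. The mean was 43.8 ± 2.73 CPM in shSMARCA4 cells and 25.5 ± 0.122 CPM in control cells (SD, n = 2 each), a 1.72-fold higher level. The log2 fold change was 0.78 with an SE of 0.062 and a 95% interval of 0.64 to 0.92 (edgeR's quasi-likelihood test, adjusted p = 4.46e-05). Intervals given for fold changes are not adjusted for the number of genes.

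BCL7C (ENSG00000099385.12, minus strand, chr16:30887795-30894077), a paralog of similar sequence, rose by less. Its transcript has 846 exon bases in the table, whereas GENCODE 29 gives the same transcript 1740 exon bases, so its level per kilobase depends on the annotation. It stood at 28.5 and 25.9 CPM in the shSMARCA4 libraries, against 23.9 and 23.2 CPM in the controls. The groups did not overlap, but the gap between the shSMARCA4 libraries, 28.5 and 25.9 CPM, was wider than that from the lower of them to the higher control. Means were 27.2 ± 1.89 CPM in shSMARCA4 cells and 23.5 ± 0.531 CPM in control cells (SD, n = 2 each), and the log2 fold change was 0.21 with an SE of 0.070 and a 95% interval of 0.053 to 0.37 (edgeR's quasi-likelihood test, adjusted p = 0.0487). The call was lost with DESeq2 (adjusted p = 0.164), with limma-voom (adjusted p = 0.0538), when genes of low counts were kept (adjusted p = 0.172) and, in edgeR, without shSMARCA4 library 1 (adjusted p = 0.41). The direction was higher in all 13 alternatives, with log2 fold changes of 0.14 to 0.28.

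BCL7B (ENSG00000106635.8, minus strand, chr7:73536356-73557690), a gene of the region deleted in Williams syndrome, had a negative fold change that did not pass the test. It stood at 21.2 and 20.8 CPM in the shSMARCA4 libraries, against 23.1 and 23.1 CPM in the controls. Both shSMARCA4 libraries lay below both controls, and the libraries of each group were close together. The log2 fold change was -0.14 with an SE of 0.064 and a 95% interval of -0.28 to 0.0075 (edgeR's quasi-likelihood test, adjusted p = 0.141), and it was negative and short of the threshold in all 13 alternatives. The interval allows a level from 0.822 to 1.01 times that of controls.

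Between the BCL7 paralogs, the balance was tilted towards BCL7A in shSMARCA4 cells. Per library, the log2 ratio of BCL7A to BCL7B, each per kilobase of transcript, was -0.81 and -0.91 in the shSMARCA4 libraries and -1.78 and -1.77 in the controls. The log2 fold changes of this pair differed by 0.92 with a combined SE of 0.089, computed from the SEs of both as if independent. The corresponding ratio to BCL7C was -2.20 and -2.18 in the shSMARCA4 libraries, against -2.79 and -2.74 in the controls, and here the fold changes differed by 0.57 with a combined SE of 0.093. Between BCL7B and BCL7C the log2 ratio was -1.39 and -1.28 in the shSMARCA4 libraries and -1.01 and -0.97 in the controls, and the fold changes differed by -0.35 with a combined SE of 0.095. In each of these pairs the groups did not overlap, and the exact permutation test of 2 libraries against 2 gives p = 0.33, the smallest it can give, so the ratios are a description.

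As a share of the family's counts per kilobase, BCL7A took 13.6% and 13.5% in the shSMARCA4 libraries, against 8.79% and 9.02% in the controls. BCL7B took 23.8% and 25.3% in the shSMARCA4 libraries, against 30.2% and 30.8% in the controls. BCL7C took 62.6% and 61.3% in the shSMARCA4 libraries, against 61.0% and 60.2% in the controls. The mean share in shSMARCA4 cells minus that in controls was 4.63 percentage points for BCL7A and -5.96 percentage points for BCL7B, both beyond the SDs of 0.103 to 1.04 points. For BCL7C it was 1.33 points. The sign for BCL7C and the order of the shares depend on the length correction. In plain counts BCL7C took 29.9% and 29.2% in the shSMARCA4 libraries, against 33.0% and 32.2% in the controls, and BCL7A had the highest share in every library, 47.9% and 47.3% in the shSMARCA4 libraries and 35.1% and 35.6% in the controls. The exon lengths of GENCODE 29, an alternative added after seeing the data, are not those of the release in which reads were counted. With them BCL7C took 47.6% and 46.3% in the shSMARCA4 libraries and 46.6% and 45.7% in the controls, still the highest of the 3. The 3 genes together summed to 51.9 ± 2.83 CPM per kilobase in shSMARCA4 cells and 45.9 ± 0.604 CPM per kilobase in control cells (SD, n = 2 each).

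**Figure D2:**
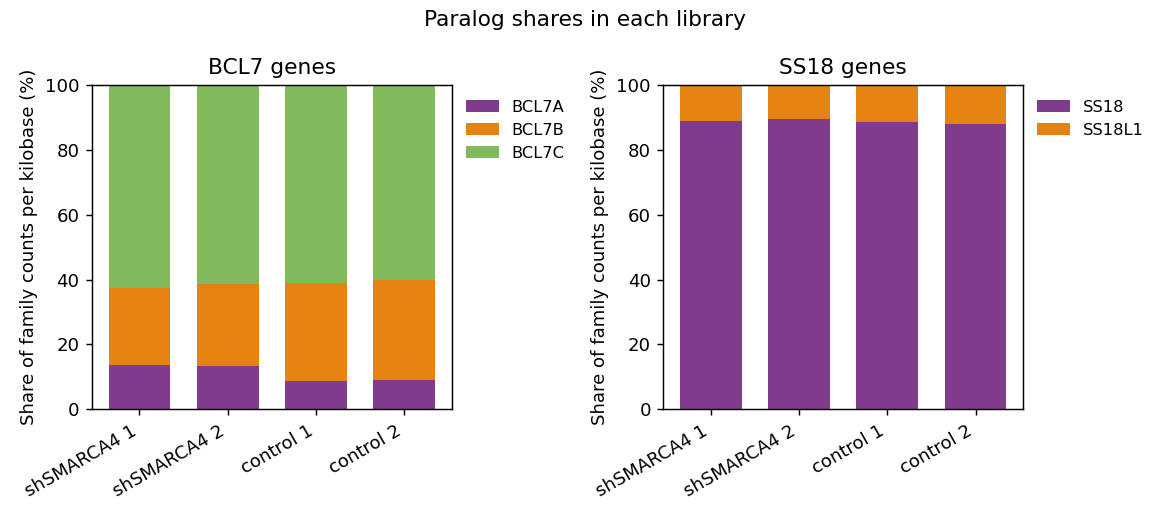
Share of each paralog in the summed counts per kilobase of its family (vertical axes, percent, 0 to 100) in the 2 shSMARCA4 and the 2 control libraries, for the BCL7 genes and the SS18 genes. BCL7A takes 13.6% and 13.5% in shSMARCA4 libraries against 8.79% and 9.02% in controls, BCL7B takes 23.8% and 25.3% against 30.2% and 30.8%, and SS18 holds 88.0% to 89.5% of its pair in every library.

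The starts of the 3 BCL7 genes and of ACTL6B, a neuronal subunit, are shown side by side. Each sequence, from RefSeq on GRCh38.p14, covers 250 bases before and 50 bases after the annotated start, 5′ to 3′ on the gene's strand. Capitals mark matches, on either strand, to any of the motifs searched: the GC box GGGCGG, the CCAAT box CCAAT, the TATA box TATAAA, the AP-1 site TGANTCA, the E-box CACGTG and the TEAD site GGAATG.
BCL7A, chr12:122021634-122021933, plus strand: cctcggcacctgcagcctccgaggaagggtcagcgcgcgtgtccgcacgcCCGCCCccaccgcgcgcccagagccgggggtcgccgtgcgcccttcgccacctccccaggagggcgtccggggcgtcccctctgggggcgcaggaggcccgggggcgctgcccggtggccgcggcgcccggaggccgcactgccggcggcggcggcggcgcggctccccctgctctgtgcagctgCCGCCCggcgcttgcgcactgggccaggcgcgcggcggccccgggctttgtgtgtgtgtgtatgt
BCL7B, chr7:73557641-73557940, minus strand: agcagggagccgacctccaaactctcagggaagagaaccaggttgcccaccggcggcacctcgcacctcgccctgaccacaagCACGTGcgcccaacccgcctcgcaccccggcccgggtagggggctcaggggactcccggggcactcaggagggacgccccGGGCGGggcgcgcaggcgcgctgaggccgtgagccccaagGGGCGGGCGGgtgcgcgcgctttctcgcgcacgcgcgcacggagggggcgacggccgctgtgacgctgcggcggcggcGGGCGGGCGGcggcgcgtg
BCL7C, chr16:30894028-30894327, minus strand: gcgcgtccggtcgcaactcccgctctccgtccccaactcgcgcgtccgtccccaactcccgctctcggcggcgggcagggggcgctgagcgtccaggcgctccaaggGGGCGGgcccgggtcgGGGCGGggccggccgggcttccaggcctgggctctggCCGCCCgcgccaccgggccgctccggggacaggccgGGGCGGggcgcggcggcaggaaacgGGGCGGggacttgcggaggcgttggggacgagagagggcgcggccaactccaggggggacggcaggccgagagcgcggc
ACTL6B, chr7:100656399-100656698, minus strand: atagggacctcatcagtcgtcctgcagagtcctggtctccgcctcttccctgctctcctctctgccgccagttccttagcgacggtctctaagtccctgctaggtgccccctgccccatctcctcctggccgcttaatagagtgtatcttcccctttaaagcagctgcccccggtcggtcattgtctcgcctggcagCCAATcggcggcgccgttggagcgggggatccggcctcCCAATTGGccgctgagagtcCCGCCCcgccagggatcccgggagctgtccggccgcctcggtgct

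All 3 BCL7 windows are rich in G and C, at 80.3% for BCL7A, 77.7% for BCL7B and 80.3% for BCL7C, against a median of 58.7% over the 35116 windows of the RefSeq table. They hold 44, 44 and 45 CpG dinucleotides in that order, where the median is 14. The GC box occurs 2 times in the BCL7A window and 5 times each in those of BCL7B, where some overlap, and BCL7C, and 45% of all windows hold at least 1. The BCL7B window also holds 1 E-box, found in 7.26% of windows. The ACTL6B window has a GC content of 65.0%, 1 GC box and 3 matches to the CCAAT box, 2 of which overlap on opposite strands. The CCAAT box occurs in 34.6% of windows. The TATA box, the AP-1 site and the TEAD site, present in 11.5%, 7.71% and 14% of all windows, have no match in these 4 sequences. Matches are a description of the letters only. The starts shown for BCL7B and BCL7C coincide with those of the transcripts counted, while the BCL7A transcript counted starts 2462 bases upstream of the RefSeq start. The ACTL6B transcript counted starts 8710 bases downstream of the start shown, so its absent counts do not bear on that window. Of the 7 members 6 had an entry in the table, and SS18 and BCL7B had 2 starts each. The BCL7B window not shown, 454 bases from the start of the transcript counted, holds 39 CpG dinucleotides, 1 GC box, 1 CCAAT box and no E-box.

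ACTL6A (also called BAF53A), which besides BAF is a subunit of the INO80, SRCAP and TIP60 complexes, was the most abundant member. The transcript counted (ENST00000392662.5 of gene ENSG00000136518.17) lies on the plus strand at chr3:179562920-179588398. It stood at 195 and 187 CPM in the shSMARCA4 libraries, against 155 and 156 CPM in the controls. Both shSMARCA4 libraries lay above both controls, by several times the gap within either group. Means were 191 ± 5.83 CPM in shSMARCA4 cells and 156 ± 0.787 CPM in control cells (SD, n = 2 each), 1.23-fold higher. The log2 fold change was 0.29 with an SE of 0.041 and a 95% interval of 0.20 to 0.39 (edgeR's quasi-likelihood test, adjusted p = 8.72e-04). ACTL6A passed the test in all 13 alternatives, with log2 fold changes of 0.27 to 0.34.

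ACTL6B (BAF53B; ENSG00000077080.10, minus strand, chr7:100643142-100647738), the neuronal paralog, had 0 counts in each of the 4 libraries and did not enter the test. A count of 0 allows a level of up to 0.104 and 0.109 CPM in the shSMARCA4 libraries and 0.0915 and 0.0930 CPM in the controls, taking 3 counts as the limit and covering counting error only. The limit applies to the transcript that was counted. That transcript, ACTL6B-204, is annotated in GENCODE 29 as a retained intron form, and its exons cover 46.6% of the bases of the longest coding transcript, ACTL6B-201. Reads from the rest of ACTL6B were not analysed here.

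Neuronal markers gave no uniform picture beside it. Of 9 markers, STMN2 was at 0 in every library, DCX and ELAVL4 had at most 1 count, and RBFOX3 had at most 10 counts. Of the 5 tested, MAP2 and SYP rose, TUBB3 and NEFL fell, and SNAP25 was not called. Over all genes tested 13.8% rose and 15.8% fell. The list summed to 87.7 and 92.5 CPM in the shSMARCA4 libraries, against 104 and 103 CPM in the controls, and the part of these genes in the results was not tested. REST, a repressor of neuronal genes in non-neuronal cells, stood at 60.4 and 58.9 CPM in the shSMARCA4 libraries and at 58.8 and 58.9 CPM in the controls, with a log2 fold change of 0.02 (SE 0.046, 95% interval -0.085 to 0.12).

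SS18 (ENSG00000141380.14, minus strand, chr18:26016253-26090613), the fusion partner in synovial sarcoma, showed no call. It stood at 140 and 136 CPM in the shSMARCA4 libraries and at 131 and 135 CPM in the controls. The lower shSMARCA4 library was only just above the higher control. The log2 fold change was 0.05 with an SE of 0.042 and a 95% interval of -0.042 to 0.15 (edgeR's quasi-likelihood test, adjusted p = 0.384), which allows a level from 0.972 to 1.11 times that of controls.

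SS18L1 (ENSG00000184402.15, plus strand, chr20:62143769-62182514), known as a calcium-responsive transactivator in neurons, was measured at 23.7 and 21.3 CPM in the shSMARCA4 libraries, against 22.7 and 24.6 CPM in the controls. The groups overlap. The log2 fold change was -0.07 with an SE of 0.078 and a 95% interval of -0.25 to 0.11 (edgeR's quasi-likelihood test, adjusted p = 0.545). Its sign turned without shSMARCA4 library 2, to 0.0052. SS18 made up 88.8% and 89.5% of the counts per kilobase of the pair in the shSMARCA4 libraries, against 88.6% and 88.0% in the controls. The share of SS18 in shSMARCA4 cells was 0.863 percentage points above that in controls, beside SDs of 0.529 points in shSMARCA4 cells and 0.413 points in controls. That difference was 0.489 points without shSMARCA4 library 2 and 0.571 points without control library 2. The log2 fold changes of the pair differed by 0.12 with a combined SE of 0.088.

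Per kilobase of the transcript counted, the members covered a wide range of levels. In shSMARCA4 cells ACTL6A stood at 102 CPM per kilobase, followed by SS18 at 40.8, BCL7C at 32.2, BCL7B at 12.7, BCL7A at 7.03 and SS18L1 at 4.97 CPM per kilobase. In control cells the order was ACTL6A at 83.3, SS18 at 39.3, BCL7C at 27.8, BCL7B at 13.99, SS18L1 at 5.23 and BCL7A at 4.09 CPM per kilobase. BCL7A and SS18L1 thus changed places: BCL7A had 7.34 and 6.72 CPM per kilobase and SS18L1 5.24 and 4.70 in the shSMARCA4 libraries, against 4.07 and 4.10 for BCL7A and 5.01 and 5.44 for SS18L1 in the controls. No neighbours in either order overlapped between libraries. These levels rest on the length of the 1 transcript kept per gene, from 846 bases for BCL7C to 6236 bases for BCL7A, and other isoforms were not analysed here. With GENCODE 29 lengths, not those the counts were made with, BCL7C stood at 15.6 CPM per kilobase in shSMARCA4 cells and 13.5 in controls. BCL7B stood at 10.6 in shSMARCA4 cells and 11.7 in controls. The order of the members stays as given.

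Among 29 BAF subunits listed, the members included some of the most and the least abundant transcripts per length. ACTL6A ranked 2 in shSMARCA4 and in control cells, after ACTB. SS18 ranked 3 in shSMARCA4 cells and 4 in controls, BCL7C 4 and 6, BCL7B 17 and 17, BCL7A 21 and 24, and SS18L1 24 and 23. These ranks use the lengths in the table, and that of BCL7C rests on its 846 bases. SMARCA4 itself ranked 22 in shSMARCA4 cells and 5 in controls, at 6.39 CPM per kilobase in shSMARCA4 cells, below the 7.03 of BCL7A, and at 30.2 in controls, where BCL7A had 4.09.

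**Figure D3:**
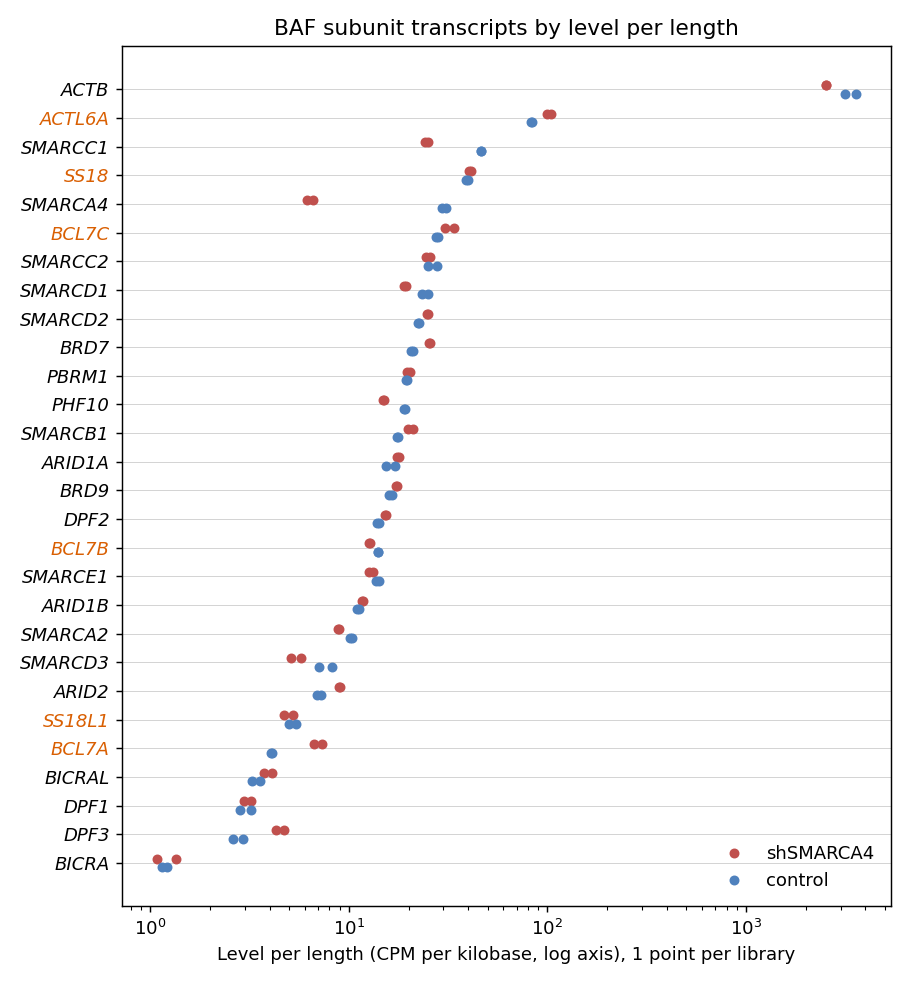
Level per length of 28 BAF subunit transcripts (horizontal log axis, CPM per kilobase; 1 point per library; genes on the vertical axis ordered by the control mean, with the BCL7, SS18 and actin-related members in orange); ACTL6B, at 0, is left out. ACTL6A lies second after ACTB in shSMARCA4 and in control libraries, and BCL7A moves to the right in shSMARCA4 libraries.

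Other BAF subunits changed both ways. Of 22 tested, 5 rose and 7 fell, SMARCA4 included, where 13.8% of all tested genes rose and 15.8% fell. The median log2 fold change of the 22 was 0.04. The largest rise was in DPF3, a histone-reading subunit, at 18.1 and 19.7 CPM in the shSMARCA4 libraries and 12.3 and 10.9 CPM in the controls, with a log2 fold change of 0.70 (SE 0.091). It was followed by ARID2 and BRD7, subunits of the PBAF complex, at 0.35 (SE 0.046) and 0.30 (SE 0.040). PBAF subunits did not rise as a set: PBRM1 was not called, at 0.04 (SE 0.041), and PHF10 fell, at -0.35 (SE 0.044). After SMARCA4, the scaffold SMARCC1 fell most, with a log2 fold change of -0.91 (SE 0.041), and then SMARCD3 at -0.50 (SE 0.11). ACTB, the actin that pairs with ACTL6A, fell while ACTL6A rose: it stood at 5691 and 5646 CPM in the shSMARCA4 libraries and 7974 and 7051 CPM in the controls, with a log2 fold change of -0.41 (SE 0.055; edgeR's quasi-likelihood test, adjusted p = 7.21e-04). ACTB has near-identical relatives with which the authors' counting may share reads, and most beta-actin belongs to the cytoskeleton, not to BAF.

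**Figure D4:**
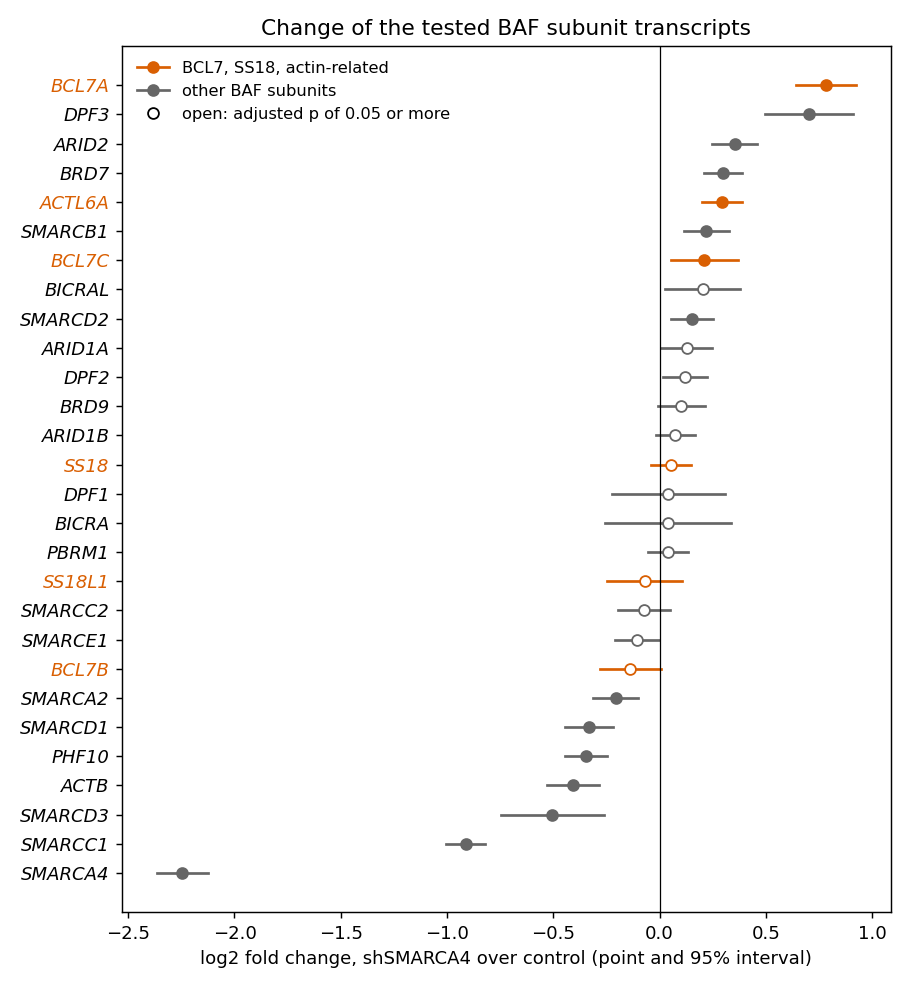
Log2 fold change of shSMARCA4 over control for 28 tested BAF subunits (horizontal axis; points with unadjusted 95% intervals; filled where the adjusted p was below 0.05; members in orange). BCL7A stands at the upper end at 0.78, next to DPF3 at 0.70, and SMARCA4 at the lower end at -2.24.

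The paralogs that are exchanged in neurons did not move as a set. The neuronal members DPF3 and DPF1 had log2 fold changes of 0.70 (SE 0.091) and 0.04 (SE 0.12), beside -0.07 for SS18L1 and no count for ACTL6B. Of the progenitor members, PHF10 fell, with 65.3 and 66.2 CPM in the shSMARCA4 libraries against 82.7 and 84.4 CPM in the controls (log2 fold change -0.35, SE 0.044), ACTL6A rose, and SS18 and DPF2 were at 0.05 and 0.12, neither past the threshold. DPF2 passed it with library totals (edgeR's quasi-likelihood test, adjusted p = 0.0175), with upper-quartile scaling (adjusted p = 0.0471) and without control library 1 (adjusted p = 0.0328). Of these 8 genes, ACTL6B did not enter the test. Only DPF3 of the neuronal members and PHF10 of the progenitor members were called in the direction of that exchange. ACTL6A was called in the opposite direction. Over all tested genes 13.8% were called as higher and 15.8% as lower.

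ACTL6A also serves in the INO80, SRCAP and TIP60 complexes, so their other subunits were counted. Of 32 tested, 6 rose and 4 fell, where 13.8% of all tested genes rose and 15.8% fell. The median log2 fold change of the 32 was 0.07, and 22 were not called. MRGBP, a subunit of TIP60, had the highest log2 fold change, 0.39 (SE 0.053). MBTD1 came next at 0.28 (SE 0.093), but stood at 0.15 without control library 1 and at 0.44 without control library 2, above the 0.38 of MRGBP there. The MBTD1 call (edgeR's quasi-likelihood test, adjusted p = 0.0473) was lost with DESeq2, with no filter, without shSMARCA4 library 1 and without control library 1. EPC2 and MORF4L2, also of TIP60, fell most, at -0.35 (SE 0.064) and -0.34 (SE 0.037). The other nuclear actin-related proteins of these complexes were not called: ACTR5 was at 0.21 (SE 0.11), ACTR6 at -0.01 (SE 0.065) and ACTR8 at -0.13 (SE 0.058).

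The genes whose profiles over the 4 libraries came nearest to those of the 3 called members were found by the root mean square difference of centred log2 CPM over 10872 protein-coding genes whose mean reached 5 CPM. For BCL7A they were TFPI2, C17orf58 and ANKRD18B, at distances of 0.0233, 0.0275 and 0.0372, where the median over all genes searched was 0.390. For BCL7C they were ASL, COMMD9 and TEX30, at 0.00887, 0.0109 and 0.0112 (median 0.135). For ACTL6A they were PARPBP, DNAJC24 and NADK, at 0.00404, 0.00956 and 0.00971 (median 0.161). TFPI2, the nearest to BCL7A, stood at 25.4 and 23.4 CPM in the shSMARCA4 libraries and 13.8 and 14.6 CPM in the controls. With 4 libraries in 2 groups, genes with a similar fold change are near each other by construction, and small changes leave many neighbours.

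Reads were counted on both strands, so genes that overlap a member may share its reads. BCL7A overlaps the antisense long non-coding RNA ENSG00000255856 by 642 bases at its start, with 39 and 30 counts in the shSMARCA4 libraries and 21 and 21 in the controls, few beside the BCL7A counts of 825 to 1326. The antisense ENSG00000289537 overlaps SS18L1 by 915 bases and had 170 and 154 counts in the shSMARCA4 libraries and 198 and 229 in the controls. That is a sizeable number beside the 588 to 795 counts of SS18L1, whose level is uncertain to the extent that such reads are shared. The long non-coding RNAs ENSG00000262721 and MIR762HG overlap BCL7C over its whole span of 6283 bases. ENSG00000262721, on the same strand, had 4 and 3 counts in the shSMARCA4 libraries and 10 and 7 in the controls. The antisense MIR762HG had 114 and 85 counts in the shSMARCA4 libraries and 137 and 94 in the controls. BCL7C itself had 827 and 714 counts in the shSMARCA4 libraries and 784 and 747 in the controls. The antisense MIR762 overlaps BCL7C by 83 bases, with 51 and 44 counts in the shSMARCA4 libraries and 49 and 45 in the controls. The BCL7C level and its small rise are uncertain to the extent that such reads are shared. ACTL6A shares 114 bases at its end with MRPL47, which had 2815 and 2557 counts in the shSMARCA4 libraries and 3045 and 2826 in the controls. The antisense ENSG00000272910 lies within ACTL6A over 501 bases, with 409 and 368 counts in the shSMARCA4 libraries and 331 and 376 in the controls, and the antisense ENSG00000272660 overlaps ACTL6A by 140 bases, with 0 and 0 counts in the shSMARCA4 libraries and 2 and 3 in the controls. No other gene of the table overlaps the span of BCL7B, SS18 or ACTL6B. These overlaps are of spans, introns included. Whether exons overlap and how many reads are shared was not tested.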

How the data were processed

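RNA-seq libraries of 2 shSMARCA4 and 2 control samples of FT190 were analysed, grouped and numbered by their titles. Raw counts of genes make up the deposited table. Per the file header, the authors counted reads of both strands on exons (GENCODE release 45, hg38) with analyzeRepeats of HOMER, keeping 1 transcript per gene and making no adjustment. STAR 2.6.1c and DESeq2 1.19.38 are named in the submitters' processing notes. The length of the transcript kept, an other value of the deposited table, served for levels per kilobase.

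Of 63241 genes, filterByExpr (count minimum 10) kept 18781. Library sizes were adjusted by TMM (factors 0.976 to 1.02). In R 4.3.3, edgeR 4.0.16 gave a two-sided quasi-likelihood test per gene (glmQLFTest after glmQLFit). Its p-values were adjusted by Benjamini and Hochberg's method across the whole table of tested genes, with a threshold of 0.05. To obtain an SE, the size of the log2 fold change was divided by the root of F. CPM values are counts over the scaled library total, times 1e+06. The test was checked on simulated counts. Depth was 27137414 to 33641343 counts per library. Within groups the libraries were further apart than sampling noise allows (chi-square divided by its degrees of freedom 1.88 in shSMARCA4 and 6.33 in controls), so each counted as 1 replicate. With 2 libraries against 2, an exact permutation test cannot go below p = 0.33. Replicate numbers are shared between groups but the labels do not say that they mark a batch or day, so they were not used as pairs.

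The members and lists were chosen with earlier results of these data known. Genes named beyond the members follow a rule: SMARCA4, REST, the neural partners DPF1, DPF2, DPF3 and PHF10, the 3 largest rises and falls among other BAF subunits, the 2 largest among ACTL6A partner genes, and the 3 nearest profiles of each called member. ACTB, PBRM1, the ACTR genes, SS18L2 and single marker genes were named after their values were seen. PIFO, a ciliated marker, was not matched by symbol. The marker lists for immune, endothelial and fibroblast cells summed to 23.5 and 25.2, 0.345 and 0.616, and 1556 and 1680 CPM in the shSMARCA4 libraries, and to 23.2 and 25.6, 0.457 and 0.713, and 1991 and 2033 CPM in the controls. The fibroblast sum was nearly all COL1A1, at 1540 and 1663 CPM in the shSMARCA4 libraries and 1968 and 2004 CPM in the controls. PDGFRB was at 15.2 and 16.7 CPM in the shSMARCA4 libraries and 22.9 and 28.0 CPM in the controls, while COL1A2 and DCN stayed below 1 CPM in every library. The immune sum was nearly all CD68, at 22.6 and 24.3 CPM in the shSMARCA4 libraries and 21.7 and 24.3 CPM in the controls. Alternatives were scaling by upper quartiles, by RLE or by library totals alone, a filter of 1 CPM in 2 libraries or none, DESeq2 1.42.0, limma-voom (limma 3.58.1), the replicate block, each library left out, and protein-coding genes alone.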

Additional observations from a re-analysis of the deposited data

How the results depend on the processing

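BCL7A and ACTL6A kept their direction and their call, and BCL7B and SS18 kept their direction and stayed uncalled, in all 13 alternatives. BCL7C, at 0.21 on the log2 scale, was no longer called at 0.21 with no filter, DESeq2 or limma-voom, and leaving out a library gave 0.14 to 0.28. SS18L1 ranged from -0.14 to 0.0052 with a library left out, and BCL7A from 0.73 to 0.84, BCL7B from -0.14 to -0.13, SS18 from 0.038 to 0.075 and ACTL6A from 0.27 to 0.33. DPF1 reversed to -0.0099 without shSMARCA4 library 1 and to -0.052 without control library 2, with 0.15 as its highest value. The cause was not tested. In plain counts per family, with no length correction, the BCL7A, BCL7B and BCL7C share differences were 12.3, -9.20 and -3.08 percentage points, by the construction of that scale, against 4.63, -5.96 and 1.33 per kilobase. With GENCODE 29 lengths, added after seeing the data and not those the counts were made with, they were 7.15, -7.96 and 0.803 points. Leaving out a library gave 4.52 to 4.75, -6.70 to -5.23 and 0.666 to 1.99 points, and 0.489 to 1.24 points for SS18.

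With library totals, other BAF subunits had 10 and ACTL6A partner genes 10 higher calls, and 59.5% of calls over all genes were higher, against 46.6%. With no filter, other BAF subunits had 3 higher calls, partner genes 2 higher and 2 lower, and all genes 1403 higher and 1784 lower, against 2596 and 2976. With DESeq2, partner genes had 2 lower calls and all genes 1625 higher and 1930 lower. Leaving out a library gave 3 to 7 higher and 6 to 9 lower other BAF subunits, 4 to 9 higher and 2 to 6 lower partner genes, and 1724 to 3618 higher and 2077 to 3828 lower genes in all; members were 2 to 3 higher and 0 lower. With 1 library left in a group, that library is assumed to vary like the other group's. The low ends of the higher counts came without shSMARCA4 library 1.

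With the replicate number as a block, 3 members were higher and 0 lower, with BCL7A at 0.78 and BCL7C at 0.21, and all genes gave 3187 higher and 3562 lower calls; it changed no call of a member. Deviations of same-numbered libraries correlated at 0.119 over 2 pairs, across genes. Depth limits ACTL6B to the bounds given for a count of 0.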

Other observations

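SS18L2, a small protein related to SS18 that is not known as a BAF subunit, stood at 18.4 and 17.8 CPM in the shSMARCA4 libraries and 16.3 and 16.6 CPM in the controls. Both shSMARCA4 libraries lay above both controls, as they did in 1 direction or the other for 65.9% of all genes tested. Its log2 fold change was 0.13 with an SE of 0.073 and did not pass the test (edgeR's quasi-likelihood test, adjusted p = 0.203). Per kilobase it had 17.4 ± 0.391 CPM in shSMARCA4 cells and 15.8 ± 0.226 CPM in control cells (SD, n = 2 each). By the deposited lengths this lay between BCL7B and BCL7C in both groups. The deposited length of BCL7C gave 32.2 CPM per kilobase in shSMARCA4 cells and 27.8 in controls. Its GENCODE 29 length gave 15.6 in shSMARCA4 cells and 13.5 in controls. No GENCODE 29 length was used for SS18L2, so these last values and those of SS18L2 are on unlike scales and were not ranked.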
